A study of Mus musculus with 16 samples.

Results

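Livers of ethanol-fed mice given iodomethylcholine (EtOH IMC) were compared with livers of pair-fed mice given the vehicle (Pair control), to describe what stayed away from the pair-fed level when ethanol and the inhibitor were given together. These are 8 of the 16 libraries of the series, 4 mice in each group, taken by their labelled diet and treatment. All mice were C57Bl6/J females, young adults by the study's methods, and the labels name no transgene, deletion or other treatment. EtOH IMC mice received the Lieber-DeCarli liquid diet with ethanol raised in steps over a chronic feeding period, with IMC in the diet. Pair control mice received the same liquid diet with maltose dextrin in place of the ethanol calories and no IMC. The remaining 8 libraries, ethanol-fed mice without IMC (EtOH control) and pair-fed mice with IMC (Pair IMC), served as another set for each gene. EtOH IMC and Pair control differ in both agents, and by the study's account mice given ethanol with IMC ate less and weighed less, so ethanol, IMC and lower intake cannot be told apart in this contrast alone. The labels do not say which mice shared a cage or litter. The study recorded diet intake by cage, with several mice in a group, so some livers may come from cage mates. The p-values measure the spread between single livers and treat these as independent. That spread was estimated within the groups of all 16 libraries.

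IMC is a choline analog that blocks the gut microbial enzyme which releases trimethylamine (TMA) from choline, and TMA that reaches the liver is oxidized there to TMAO. Ethanol is oxidized in hepatocytes by alcohol dehydrogenases, by catalase and by the cytochrome P450 CYP2E1, and the acetaldehyde formed is cleared by ALDH2. The liver meets foreign molecules with families of P450s, glutathione S-transferases and efflux pumps, whose genes are driven in large part by the nuclear receptors CAR and PXR and by the oxidant sensor NRF2. Hepatocytes of female and male mice also differ in many of these genes, a pattern set by the timing of growth hormone pulses through STAT5.

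The 4 Pair control libraries are numbered 10, 12, 14 and 16 and the 4 EtOH IMC libraries 9, 11, 13 and 15, and values of single mice are given in these orders. Reads on genes ranged from 9632659 to 11397932 in Pair control and from 10896697 to 12601199 in EtOH IMC. Values are the deposited normalized counts after a further rescaling by a median ratio over all 16 libraries. The deposited scaling appeared from its values to be set within each diet, and it left the median gene 0.19 (log2) higher in EtOH IMC. Of 24082 genes, 12148 reached a value of 10 in at least 4 of the 8 libraries and were tested. The hepatocyte genes were abundant in both groups: Alb, which encodes albumin, had group means of 1105850.0 ± 286999 for Pair control and 862563 ± 122482 for EtOH IMC (SD, n = 4). A gene is said to have passed when its adjusted p was under 0.05 with limma on log2(value + 1).

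A library of each group stood apart from its group in some of the genes below. EtOH IMC library 11 was the library of its group nearest to the Pair control mean in 253 of the 541 genes that passed with at least a 2-fold difference (46.8%), against 116 for library 9, 90 for library 13 and 82 for library 15. Pair control library 12 had acute phase transcripts far above those of the other pair-fed controls. Where leaving out a library changed a call or moved a difference that passed by more than 1.5-fold, the value or call without it is given.

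Between EtOH IMC and Pair control, 3177 of the 12148 genes passed (26.2%), 1560 of them higher (12.8%) and 1617 lower (13.3%) in EtOH IMC. With the deposited scaling the same test passed 3831 higher and 815 lower. Of the genes that passed, 239 were at least 2-fold higher and 302 at least 2-fold lower (4.45% of genes tested), and 40 and 62 differed by at least 4-fold. The groups did not overlap for 2835 genes (23.3%), and 2376 genes both passed and did not overlap. The 95% interval of the log2 difference lay inside a 1.5-fold change for 6617 genes (54.5%), and 735 of these also passed, so a difference that passed could be small.

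The other 8 livers hold the same difference in diet with IMC on the other side, as EtOH control minus Pair IMC. A difference that goes with the diet alone has the same sign in both sets, and a difference that goes with IMC alone has opposite signs. Where both agents move a gene, or only their combination does, the sign does not tell them apart. Gstp1 was higher than in Pair control by 0.97 (log2) in EtOH control and by 1.49 in Pair IMC. Its difference between EtOH control and Pair IMC was -0.53. The other 8 livers share no library with the first comparison. They are libraries 1 to 8, and the first comparison holds libraries 9 to 16. A gap between a group of one set and a group of the other therefore cannot be told apart from a difference between low and high library numbers. In the other 8 livers, 3619 genes passed (29.8%), 1805 higher and 1814 lower in EtOH control (14.9% each way). Of the 3177 genes that passed between EtOH IMC and Pair control, 508 passed there with the same sign, 628 passed with the opposite sign and 2041 did not pass. Among the 239 that were at least 2-fold higher in EtOH IMC these counts were 58, 35 and 146, and among the 302 that were at least 2-fold lower they were 30, 77 and 195. Of the 8971 genes that did not pass, 13.21% passed in the other 8 livers with the same sign and 14.47% with the opposite sign. The shares for the 3177 genes were 15.99% and 19.77%. Whether or not a gene passed there, the sign was the same for 47.69% of the 3177 and 48.65% of all genes tested. It was the same for 58.16% of the 239 and 38.08% of the 302.

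**Figure D1:**
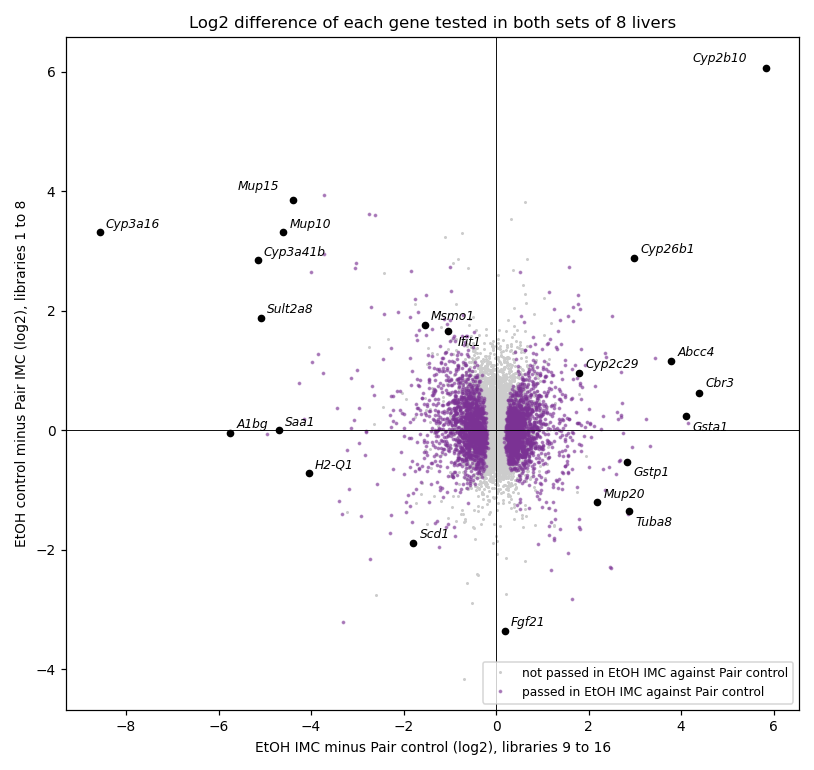
Each point is a gene tested, with its log2 difference between EtOH IMC and Pair control (libraries 9 to 16) on the horizontal axis and between EtOH control and Pair IMC (libraries 1 to 8) on the vertical axis; purple points passed in the first comparison. Cyp2b10, at 5.83 and 6.07, lies far along both axes in the upper right, while Cyp3a16, Mup10 and Mup15 lie in the upper left, with negative values on the first axis and positive values on the second.

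Drug-metabolizing genes of the constitutive androstane receptor CAR and the pregnane X receptor PXR held the largest rise of all genes tested. Of 26 tested genes of that list, 12 were higher (background 12.8%), 2 were lower (background 13.3%) and 12 did not pass, with a median log2 difference of 0.52 against -0.0023 over all genes tested; with the deposited scaling 16 were higher and none lower. In the other 8 livers 13 were higher and 2 lower in EtOH control, with the same median of 0.52. Cyp2b10 (ENSMUSG00000030483, chr7:25897620-25926624 on mm10), the P450 most used as a readout of CAR, was 66.4, 63.2, 88.6 and 56.6 in the 4 Pair control livers and 6398, 1454, 5312 and 4714 in the 4 EtOH IMC livers. Every EtOH IMC liver was far above every Pair control liver, and library 11 was the lowest of them. The log2 difference was 5.83 (SE 0.374, adjusted p = 7.58e-08), a ratio of means of 65.0. Livers with ethanol alone stood at 3913 ± 1681 (SD, n = 4) in EtOH control and livers with IMC alone at 56.6 ± 18.6 (SD, n = 4) in Pair IMC.

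Cyp2c29, a further CAR-responsive P450, was 13585 ± 1140.3 in Pair control and 48157 ± 11437 in EtOH IMC (SD, n = 4), a log2 difference of 1.79 (SE 0.179, adjusted p = 2.98e-06). Cyp2c37, its neighbour in the same P450 cluster, rose by 1.64 on the log2 scale (adjusted p = 2.96e-07) and was 20048 ± 2385 in EtOH control against 9841 ± 1209 in Pair IMC. Abcc3, an efflux pump of the basolateral membrane that exports glucuronides and bile acids, was 1828, 1779, 2267 and 2150.5 in Pair control and 5001, 4787, 6783 and 5918 in EtOH IMC. The groups were far apart, with a log2 difference of 1.48 (SE 0.127, adjusted p = 7.36e-07) and, in the other 8 livers, of 1.17 (adjusted p = 1.10e-05). Cyp26b1, a P450 that degrades retinoic acid, rose by 2.99 (log2, adjusted p = 6.02e-05), and the log2 difference of the other 8 livers was 2.88 (adjusted p = 8.11e-05). Cyp1a2 also rose, from 3426 ± 573 to 8274 ± 3884 (SD, n = 4, log2 difference 1.12, adjusted p = 0.0222), but its groups overlapped and the call was lost without library 12, 13 or 15, with adjusted p-values up to 0.0815.

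Other genes of the same receptors did not rise. Cyp3a11, the main xenobiotic P450 of the PXR response, was 29257, 24706, 25857 and 27803 in Pair control and 32097, 23100.2, 28324 and 24500.2 in EtOH IMC. The groups overlapped and the log2 difference was -0.0036 (95% interval -0.31 to 0.30, adjusted p = 0.991), although EtOH control stood at 42152 ± 6019 (SD, n = 4). Cyp2b9, a female-biased P450, gave -0.08 (95% interval -0.32 to 0.17, adjusted p = 0.658) between EtOH IMC and Pair control and 0.80 (adjusted p = 0.000122) in the other 8 livers. The transcript of CAR itself, Nr1i3, fell from 675 ± 199 to 438 ± 40.4 (SD, n = 4, log2 difference -0.58, adjusted p = 0.0129), a call lost with the deposited scaling. The other gene of the list that was lower was Cyp2b13, a female-biased relative of Cyp2b9 (log2 difference -0.72, adjusted p = 0.0208), whose groups overlapped and whose call was lost without library 9, 10 or 13.

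**Figure D2:**
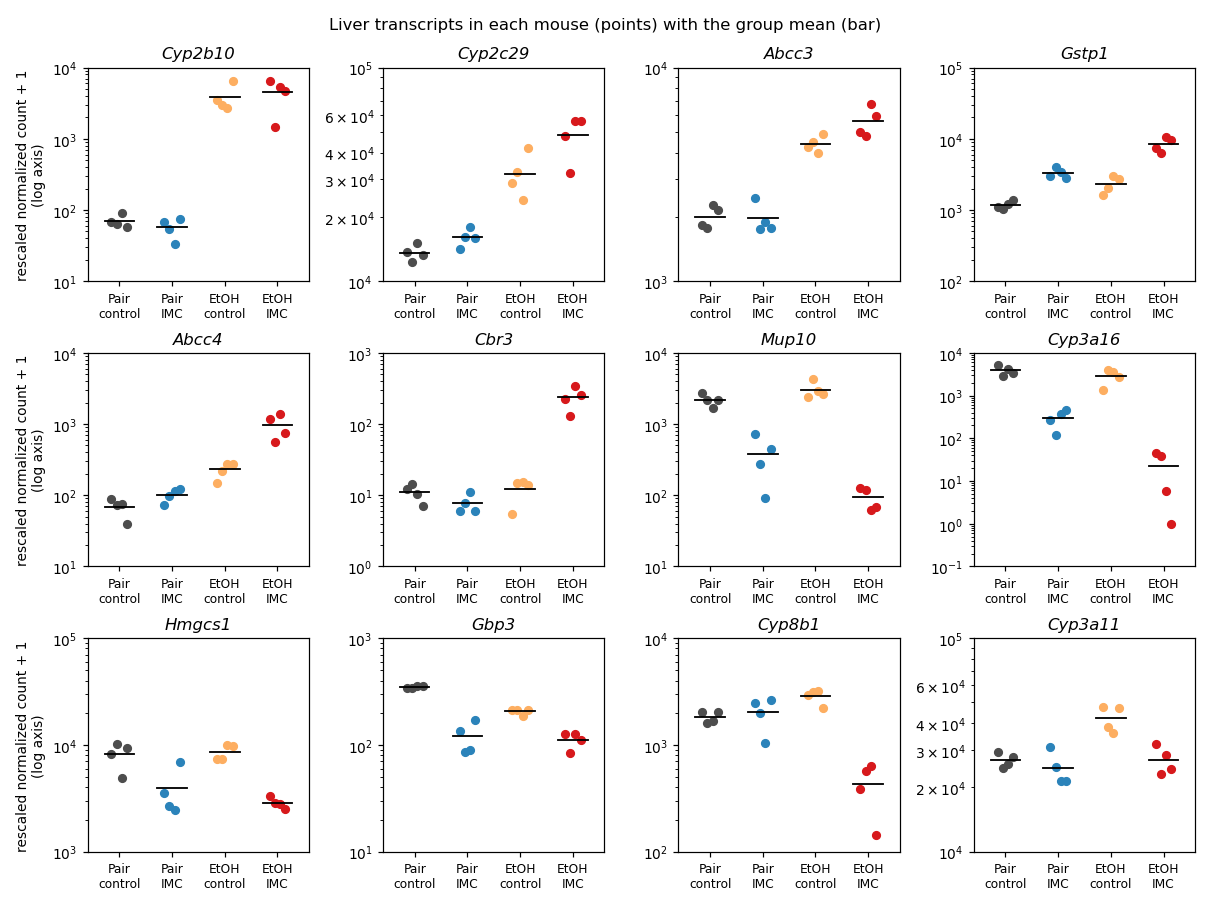
Rescaled normalized counts plus 1 on a log axis for 12 genes, with a point for each of the 4 mice of a group and a bar at the group mean. Cyp2b10, Cyp2c29 and Abcc3 are high in both ethanol-fed groups, Cbr3 is high in EtOH IMC alone, Mup10 and Hmgcs1 have their lowest means in the IMC groups, and Cyp3a11 in EtOH IMC overlaps Pair control.

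Targets of NRF2 and the glutathione system rose in most members and were, for several genes, highest where ethanol and IMC were combined. Of 28 tested genes of that list, 19 were higher and none was lower (background 12.8% and 13.3%), with a median log2 difference of 1.19. The list shares 5 tested genes with the CAR and PXR list: Gstm1, Gstm2, Gstm3, Abcc4 and Ephx1. In the other 8 livers 5 of the 28 were higher in EtOH control and 11 lower, with a median of -0.19. Gstp1, a glutathione transferase, was 1099, 1029.5, 1205 and 1362 in Pair control and 7412, 6233, 10568 and 9709 in EtOH IMC. All EtOH IMC livers lay above all Pair control livers by a wide gap, with a log2 difference of 2.83 (SE 0.184, adjusted p = 7.58e-08). Either agent alone gave intermediate values, 2342 ± 601 in EtOH control and 3325 ± 562 in Pair IMC (SD, n = 4). Ephx1, which encodes microsomal epoxide hydrolase, had the same order, with 1581 ± 285 in Pair control, 4699 ± 271 in EtOH control, 5821 ± 1523 in Pair IMC and 12589.8 ± 4668 in EtOH IMC (SD, n = 4, log2 difference 2.93, adjusted p = 2.96e-07).

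In a further set the mean of EtOH IMC stood far above those of all 3 other groups. Cbr3, a carbonyl reductase, was 11.1, 13.6, 9.33 and 6.07 in Pair control and 223, 127, 341 and 253 in EtOH IMC. The means with a single agent were 11.4 ± 4.66 in EtOH control and 6.70 ± 2.33 in Pair IMC (SD, n = 4), and the log2 difference between EtOH IMC and Pair control was 4.39 (SE 0.363, adjusted p = 4.94e-07). Gsta1, a glutathione transferase of the alpha class, was 41.0, 51.5, 47.8 and 9.10 in Pair control and 624, 161, 1119.7 and 849 in EtOH IMC. The means were 70.8 ± 44.4 in EtOH control and 50.1 ± 15.9 in Pair IMC (SD, n = 4). Library 11 was the lowest of the EtOH IMC livers and still above each Pair control liver, and the log2 difference was 4.11 (SE 0.619, adjusted p = 0.000172) with it and 4.70 without it. Gm10639, annotated as a gene model of the same cluster, rose by 4.16 on the log2 scale (adjusted p = 5.80e-05), and near copies among the Gsta genes may share their reads. Whether the rise of these genes in EtOH IMC exceeded that with each agent alone was not tested here.

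Abcc4, an efflux pump that carries bile acids and conjugates out of hepatocytes, was 88.6, 71.9, 74.6 and 38.4 in Pair control and 1194, 555, 1387 and 755 in EtOH IMC. The lowest EtOH IMC liver was above the highest Pair control liver by a wide margin, and the log2 difference was 3.78 (SE 0.290, adjusted p = 2.96e-07). EtOH control stood at 230.1 ± 62.2 and Pair IMC at 100.6 ± 21.4 (SD, n = 4). The mu-class glutathione transferases Gstm3 and Gstm4 rose, with log2 differences of 3.44 (adjusted p = 5.33e-06) and 1.93 (adjusted p = 2.96e-07), and both were also higher in EtOH control than in Pair IMC, by 1.22 and 1.10. Nqo1, the quinone reductase that is the usual readout of NRF2, was 137, 135, 159 and 134 in Pair control and 504, 437, 603 and 523 in EtOH IMC, with no overlap (log2 difference 1.86, SE 0.154, adjusted p = 4.94e-07). Gclc, the catalytic subunit of the enzyme that limits glutathione synthesis, rose by 1.42 (log2, adjusted p = 4.00e-05), and the other 8 livers gave a log2 difference of -0.70 (adjusted p = 0.0078). Hmox1, the inducible heme oxygenase, did not pass: it was 213 ± 44.2 in Pair control and 248 ± 41.0 in EtOH IMC (SD, n = 4, log2 difference 0.22, 95% interval -0.34 to 0.78, adjusted p = 0.571).

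NRF2 binds DNA words close to TGACNNNGC, which were counted on both strands of the RefSeq promoter windows, 250 bases before to 50 bases after each gene start. They were present in 8 of the 24 list members that have a window (33.3%) and in 1393 of 9485 windows of tested genes (14.7%). Of the 16 list members with a window that passed, 4 held the word. Abcc4 and Ugdh are shown because the word lies before the start in both and both rose; Ugdh, which makes the sugar donor of glucuronidation, rose by 1.42 (log2, adjusted p = 1.71e-06). A match is a string of letters and no measured binding site. The 250 bases before the start are given 5′ to 3′ on the strand of the gene from RefSeq on GRCm38.p6, chr14:118706220-118706469 (minus strand) for Abcc4 and chr5:65435843-65436092 (minus strand) for Ugdh, with capitals for the words matched on either strand.
Abcc4: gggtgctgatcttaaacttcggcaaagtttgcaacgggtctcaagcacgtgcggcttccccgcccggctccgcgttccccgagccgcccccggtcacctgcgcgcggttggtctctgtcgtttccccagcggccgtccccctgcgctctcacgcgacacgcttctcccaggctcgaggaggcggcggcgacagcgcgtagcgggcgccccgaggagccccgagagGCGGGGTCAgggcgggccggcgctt
Ugdh: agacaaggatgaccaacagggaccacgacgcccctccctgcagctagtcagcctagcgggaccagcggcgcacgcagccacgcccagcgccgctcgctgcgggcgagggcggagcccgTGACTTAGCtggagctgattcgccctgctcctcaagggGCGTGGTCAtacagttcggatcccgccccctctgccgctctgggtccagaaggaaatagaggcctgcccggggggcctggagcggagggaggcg

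Some of the largest differences belonged to neither list. The genes named for the largest rises and falls were taken from those that passed without overlap, so their lack of overlap is part of the choice. Tsku, which encodes a secreted protein of the leucine-rich repeat family made by the liver, was 151, 385, 396 and 370.2 in Pair control and 3206, 2088, 4143 and 2519.8 in EtOH IMC, with no overlap (log2 difference 3.25, SE 0.438, adjusted p = 6.22e-05). With a single agent it stood at 1623 ± 643 in EtOH control and 1597 ± 1069 in Pair IMC (SD, n = 4). Fst, which encodes follistatin, a secreted binder of activins, rose from 22.05 ± 3.20 to 159 ± 52.1 (SD, n = 4, log2 difference 2.75, adjusted p = 4.07e-06). Tuba8, an alpha tubulin, rose by 2.87 (log2, adjusted p = 2.41e-05) and the other 8 livers gave -1.34 (adjusted p = 0.00754). Ntrk2, a neurotrophin receptor, fell from 265, 337, 191 and 130.5 in Pair control to 21.4, 6.73, 9.89 and 11.3 in EtOH IMC (log2 difference -4.15, adjusted p = 7.96e-07), with no overlap.

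**Figure D3:**
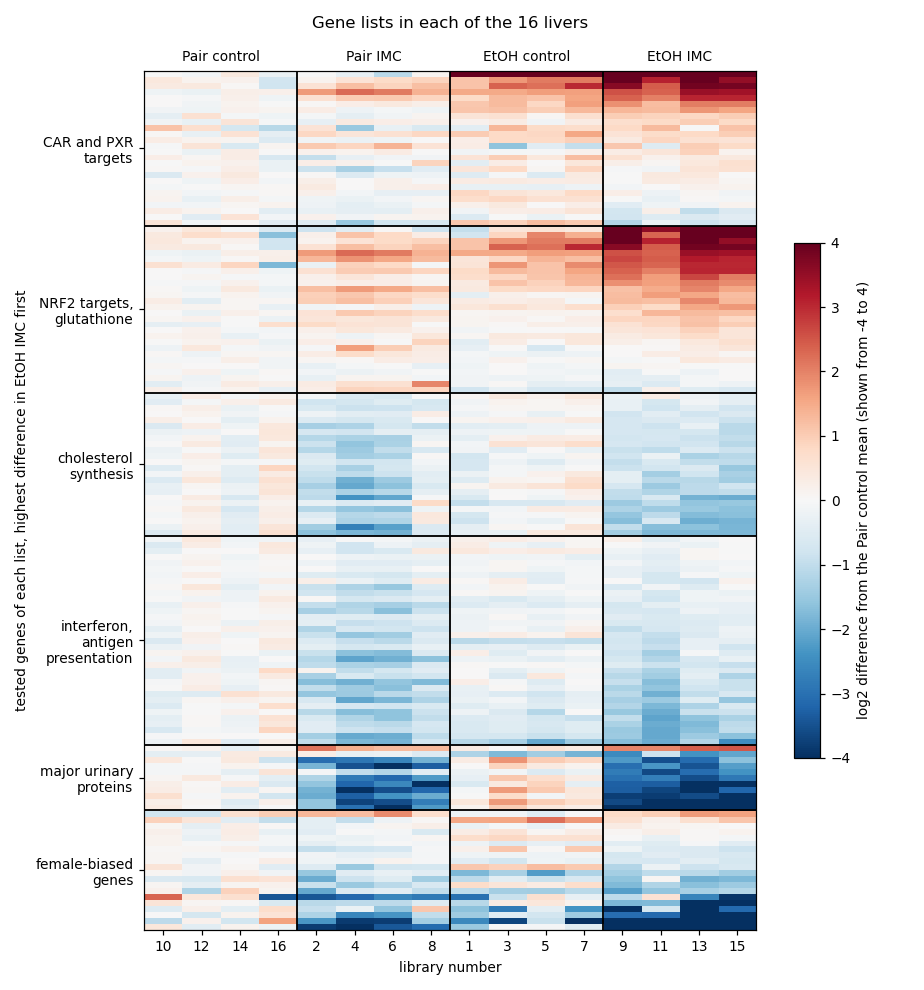
Each row is a tested gene of 6 lists and each column a liver, ordered by group, with the log2 difference from the Pair control mean in color from -4 (blue) to 4 (red). Many CAR and PXR targets are red in both ethanol-fed groups, NRF2 targets are reddest in EtOH IMC, and most cholesterol synthesis, interferon and major urinary protein genes are blue in Pair IMC and EtOH IMC.

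Genes that are higher in female than in male mouse liver were mostly lower in EtOH IMC. Of 20 tested genes of that list, 13 were lower, 1 was higher and 6 did not pass (background 13.3% and 12.8%), with a median log2 difference of -0.97. Cyp3a16 (ENSMUSG00000038656, chr5:145436309-145469723 on mm10), a female-biased P450, was 5311, 2898, 4211 and 3372 in Pair control and 45.3, 37.0, 4.95 and 0 in EtOH IMC. No Pair control liver came near the EtOH IMC values, among which library 15 had no read. This was the largest fall of all genes tested, at -8.57 on the log2 scale (SE 0.831, adjusted p = 2.40e-06). It was -7.46 without library 15, -9.30 without library 9 and -9.21 without library 11, and ranged from -9.48 to -7.04 over all alternatives. Livers with ethanol alone kept 2911 ± 1132 and livers with IMC alone 303 ± 142 (SD, n = 4). Its neighbours Cyp3a44 and Cyp3a41b also fell, with log2 differences of -4.25 (adjusted p = 2.26e-05) and -5.15 (adjusted p = 5.46e-05), and reads may have been divided among these near copies.

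A1bg, a plasma protein gene of female mouse liver, was 513, 1193, 628 and 3228 in Pair control and 19.7, 32.0, 11.9 and 15.97 in EtOH IMC. The Pair control livers themselves differed several-fold, with library 16 the highest, and all lay above all EtOH IMC livers (log2 difference -5.75, SE 0.689, adjusted p = 2.28e-05). Cux2, a transcription factor of female liver, fell from 909 ± 109 to 389.7 ± 51.8 (SD, n = 4, log2 difference -1.22, adjusted p = 0.00126) and the other 8 livers gave -0.96 (adjusted p = 0.00573). The exception that rose was Cyp2a4, a steroid hydroxylase (log2 difference 1.27, adjusted p = 0.0135), whose groups overlapped and whose call was lost without library 10. Of 15 tested male-biased genes, 26.7% passed against a background of 26.2%: 2 were higher, Mup20 and Gstp1, and 2 lower, Selenbp2 (-1.12, adjusted p = 0.0189) and Nudt7 (-0.65, adjusted p = 0.00143). Selenbp2, a selenium-binding protein, did not pass without library 15 or 16.

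Receptor genes for a pair of pituitary hormones were lower. Ghr, the growth hormone receptor, was 6616, 5241, 5885 and 5571 in Pair control and 3189.8, 3035, 3434 and 2938 in EtOH IMC, with no overlap (log2 difference -0.89, SE 0.105, adjusted p = 1.97e-05), and the means with a single agent were 5268 ± 398 in EtOH control and 4986 ± 738 in Pair IMC (SD, n = 4). Prlr, the prolactin receptor, fell by 0.94 (log2, adjusted p = 1.63e-05). Of 17 tested genes of the growth hormone, STAT5 and IGF list, 6 were lower and none higher (background 13.3% and 12.8%), with a median of -0.46; with the deposited scaling 3 were lower. Igfbp3, the main carrier of circulating IGF, fell by 1.57 (log2, adjusted p = 0.00077). Igf1 itself was 5034 ± 1179 and 4046 ± 663 (SD, n = 4, log2 difference -0.30, adjusted p = 0.132), and the STAT5 feedback gene Socs2 was 356 ± 98.8 and 223 ± 67.3 (log2 difference -0.68, adjusted p = 0.0695); neither passed, and Socs2 passed without library 11 or 12.

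Major urinary proteins are small carriers of volatile molecules that the liver secretes for excretion in urine, under growth hormone control. All 11 tested genes of the family passed, 10 lower and 1 higher (background 13.3% and 12.8%), of 21 in the table. The 10 others were too low to be tested, and close copies may share reads. The median log2 difference was -3.04, or -2.96 when the gene at the floor of 3 reads is set to its bound. Mup10 was 2731, 2209.7, 1686 and 2158 in Pair control and 125, 119, 60.3 and 67.6 in EtOH IMC, with no overlap (log2 difference -4.60, SE 0.431, adjusted p = 1.71e-06). Mup15 and Mup2 also fell, with log2 differences of -4.39 (adjusted p = 1.58e-06) and -3.996 (adjusted p = 7.96e-07). In the other 8 livers these 3 genes were higher in EtOH control than in Pair IMC, by 3.31, 3.86 and 2.66, and of the 11 genes 9 passed with the sign turned. Mup20, which encodes the male pheromone darcin, went the other way: it was 216, 230.4, 164 and 224 in Pair control and 806, 785, 1083 and 1150.5 in EtOH IMC (log2 difference 2.18, adjusted p = 6.80e-07), and 619 ± 202 in Pair IMC against 261 ± 41.1 in EtOH control (SD, n = 4).

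Phase II conjugation genes moved in both directions. Of 14 tested cytosolic sulfotransferases, 6 were lower and none higher (background 13.3% and 12.8%). Sult2a8, a sulfotransferase of bile acids, was 4927, 3732, 3488 and 3996 in Pair control and 69.3, 615, 65.3 and 65.7 in EtOH IMC. Library 11 stood about an order of magnitude above the other EtOH IMC livers and still below each Pair control liver. The log2 difference was -5.09 (SE 0.525, adjusted p = 4.60e-06) and -5.88 without library 11, and DESeq2 gave no adjusted p for this gene. Sult3a1, which sulfates amines and is female-biased, fell (log2 difference -3.34, adjusted p = 0.00378), with -4.22 without library 11 and -2.72 without library 13, and edgeR and DESeq2 on whole reads without library 15 did not pass it. Sult1b1, a phenol sulfotransferase, fell by 2.17 (log2, adjusted p = 1.85e-06).

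Of 12 tested carboxylesterases, 6 were lower and 1 higher (background 13.3% and 12.8%). Ces3a, an esterase of the hepatocyte endoplasmic reticulum, was 5075, 3619, 3952 and 7943 in Pair control and 177, 1333, 229 and 324 in EtOH IMC, without overlap (log2 difference -3.75, adjusted p = 5.84e-05; -4.37 without library 11). The gene that was higher was Ces2c, an intestinal and hepatic esterase of drug esters (log2 difference 1.55, adjusted p = 0.00674). Of 15 tested UDP-glucuronosyltransferases, 5 were higher and 5 lower (background 12.8% and 13.3%). Ugt1a5 was 1140.3, 1243, 1391 and 1265 in Pair control and 146, 259, 145 and 118 in EtOH IMC (log2 difference -2.97, SE 0.222, adjusted p = 2.96e-07), and Ugt2b35 rose from 1779 ± 361 to 6364 ± 1342 (SD, n = 4, log2 difference 1.84, adjusted p = 5.54e-06). Ugt1a5 shares exons with the other Ugt1a genes, so its reads are not fully its own.

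The genes of cholesterol synthesis and uptake, which the factor SREBP2 turns on when sterols run low, were lower nearly throughout. Of 24 tested genes, 22 were lower and none was higher (background 13.3% and 12.8%), with a median log2 difference of -0.91; with the deposited scaling 19 were lower. In the other 8 livers 17 were higher in EtOH control than in Pair IMC and none was lower, with a median of 0.77, and 15 of the 22 passed there with the sign turned. Hmgcs1, the HMG-CoA synthase of the pathway, was 8159, 10255, 4909 and 9323 in Pair control and 3309.5, 2849, 2794 and 2517 in EtOH IMC, with no overlap (log2 difference -1.46, SE 0.264, adjusted p = 0.000768). Mvd, which decarboxylates mevalonate diphosphate, fell by 1.70 (log2, adjusted p = 0.000538). Msmo1 and Nsdhl, which demethylate lanosterol derivatives, fell, with log2 differences of -1.54 (adjusted p = 0.00321) and -1.54 (adjusted p = 0.00225). The means of Msmo1 without IMC were 3026 ± 884 in Pair control and 3128 ± 812 in EtOH control, and with IMC 1049.6 ± 677 in Pair IMC and 1032 ± 294 in EtOH IMC (SD, n = 4).

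Sqle, squalene epoxidase, had overlapping groups (log2 difference -0.99, adjusted p = 0.0343) and did not pass without library 11, 12, 13, 15 or 16, with adjusted p-values up to 0.102. The word TCACNCCAC, the classic sterol regulatory element, was in 110 of 9485 promoter windows (1.16%) and in 1 of the 16 list members with a window, Hmgcs1, whose 250 bases before the start are shown for that reason (RefSeq, GRCm38.p6, chr13:119690101-119690350, plus strand), with capitals for the match.
Hmgcs1: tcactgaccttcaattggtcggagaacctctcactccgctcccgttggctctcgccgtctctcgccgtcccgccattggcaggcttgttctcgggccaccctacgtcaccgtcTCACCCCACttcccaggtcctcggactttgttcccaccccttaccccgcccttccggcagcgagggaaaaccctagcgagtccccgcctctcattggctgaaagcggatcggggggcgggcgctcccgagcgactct

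Interferon-responsive and antigen presentation genes were mostly lower. Of 35 tested, 24 were lower and none was higher (background 13.3% and 12.8%), with a median log2 difference of -0.61; with the deposited scaling 16 were lower. In the other 8 livers 19 were higher in EtOH control than in Pair IMC and none lower. Gbp3, a guanylate-binding protein of the interferon response, was 337, 342, 353 and 352 in Pair control and 126, 82.5, 126 and 111 in EtOH IMC. The Pair control livers were nearly equal and all above the EtOH IMC livers, with a log2 difference of -1.65 (SE 0.179, adjusted p = 8.16e-06). Ifi44, an interferon-induced gene, and H2-Aa, an MHC class II chain of antigen-presenting cells, fell, with log2 differences of -1.84 (adjusted p = 0.000409) and -1.55 (adjusted p = 0.000234). Ifit1, which binds foreign RNA, fell by 1.04 (log2, adjusted p = 0.00122) and was 141 ± 30.6 in EtOH control and 43.1 ± 4.20 in Pair IMC (SD, n = 4). The class I gene H2-Q1 was outside the list and fell most among MHC genes named here, from 306, 383, 291 and 221 to 20.5, 21.0, 23.7 and 7.51 (log2 difference -4.05, adjusted p = 2.96e-07), and MHC genes are near copies that may share reads.

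Of 19 tested cytokines and chemokines, 5 were lower and none higher, 26.3% against a background of 26.2% in either direction. Cxcl9, a T cell attractant induced by interferon gamma, was 155, 183, 143 and 231 in Pair control and 37.6, 33.7, 40.6 and 33.8 in EtOH IMC. Cxcl10, which shares its receptor, was 53.1, 69.0, 42.0 and 49.6 in Pair control and 11.97, 8.42, 4.95 and 19.7 in EtOH IMC. Neither gene had overlapping groups, and the log2 differences were -2.24 (adjusted p = 1.50e-05) and -2.27 (adjusted p = 0.000175). The summed level of 16 lymphocyte markers was 53.03 to 75.1 in EtOH IMC and 82.6 to 193 in Pair control. It was 83.2 to 112 in EtOH control and 85.1 to 89.6 in Pair IMC, both within the Pair control range. The part of lymphocytes in the interferon and chemokine differences was not tested. A single marker of the 16 was high enough to test and it did not pass. The Kupffer cell marker Clec4f was 1273 ± 631 and 1265 ± 245 (SD, n = 4, log2 difference 0.08, 95% interval -0.40 to 0.57). Of 17 tested macrophage markers 1 was higher and none was lower (background 12.8% and 13.3%). That marker was Cd163, a call lost when library 9, 10, 12, 13, 14 or 15 was left out. Summed macrophage levels were 6917 to 14850 in Pair control and 7849 to 10980 in EtOH IMC. In whole liver RNA, fewer cells of a type and less RNA per cell cannot be told apart.

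A few acute phase transcripts were lower in EtOH IMC, against controls of which 1 liver was very high for some of them, while 22 of 27 acute phase genes did not pass. Saa1, serum amyloid A1, was 242, 6851, 291 and 594 in Pair control and 24.8, 33.7, 18.8 and 35.7 in EtOH IMC. Library 12 stood far above the other pair-fed controls, and even the lowest of these was above each EtOH IMC liver. The log2 difference was -4.69 (SE 0.741, adjusted p = 0.000257), and -3.62 (adjusted p = 4.20e-05) without library 12. For Saa2 it was -4.95 (adjusted p = 0.000719), -3.66 without library 12 and -5.54 without library 10. Orm2, an orosomucoid, fell by 1.79 (log2, adjusted p = 0.00372), and Lcn2, lipocalin 2, was 128, 1548, 93.3 and 145 in Pair control and 138, 147, 51.4 and 71.4 in EtOH IMC and did not pass (log2 difference -1.28, adjusted p = 0.152), although edgeR and DESeq2 passed it. The other 5 of the 27 were lower and none was higher, 18.5% against a background of 13.3%; with the deposited scaling 4 were lower and 4 higher.

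**Figure D4:**
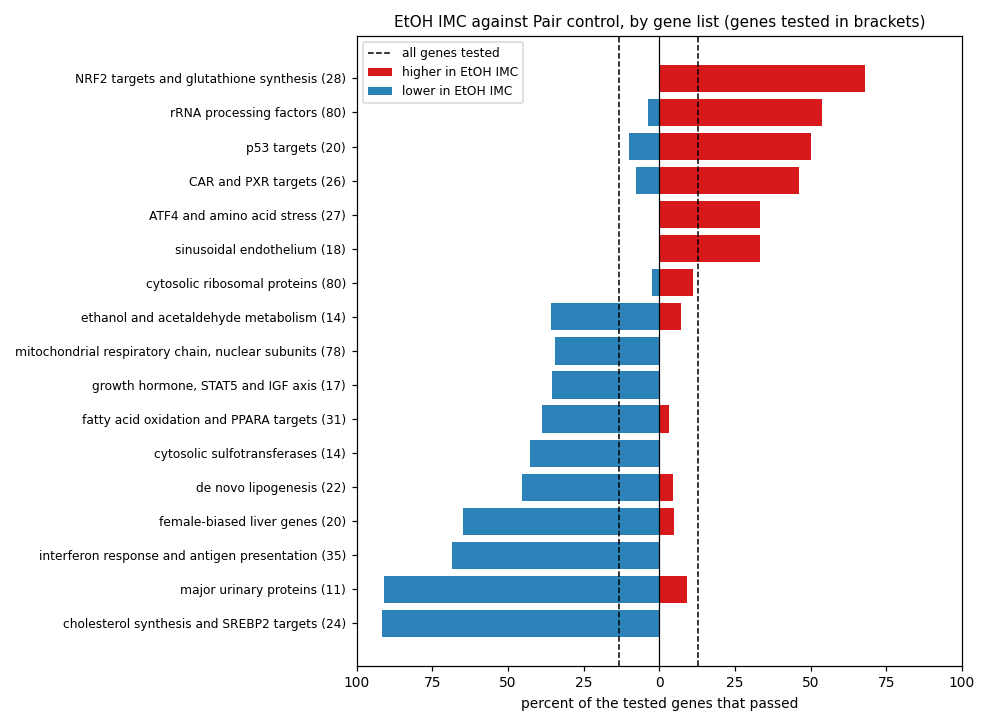
Bars give the percent of the tested genes of a list that passed with higher values (red, right) or lower values (blue, left) in EtOH IMC than in Pair control, and dashed lines give the same over all genes tested, 12.8% and 13.3%. Cholesterol synthesis, major urinary protein and interferon genes extend furthest to the left and NRF2 targets furthest to the right.

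The desaturase Scd1 and the elongase Elovl5 were lower, while the fatty acid synthase did not pass and another desaturase, Scd2, was higher (log2 difference 0.79, adjusted p = 0.00384). Of 22 tested genes of fatty acid synthesis and modification, 10 were lower and 1, Scd2, was higher (background 13.3% and 12.8%), with a median of -0.41; with the deposited scaling 5 were lower and 3 higher, and without library 9, 13 or 15 the 11 calls became 7. Scd1, the main stearoyl-CoA desaturase of liver, was 107830.0, 127676, 165851 and 105397 in Pair control and 22160.3, 31194, 61059 and 40084 in EtOH IMC, with no overlap (log2 difference -1.79, SE 0.327, adjusted p = 0.000833). The other 8 livers gave -1.88 (adjusted p = 0.000493). Elovl5, an elongase of polyunsaturated fatty acids, fell by 1.98 (log2, adjusted p = 7.96e-07), and so did Pnpla3, a lipase of lipid droplets (log2 difference -1.998, adjusted p = 0.000147), and Acss2, which makes acetyl-CoA from acetate (log2 difference -2.24, adjusted p = 0.000142). Fasn, fatty acid synthase, was 9769, 12512, 8794 and 8682 in Pair control and 7084, 12306, 12253 and 9756 in EtOH IMC and its difference was 0.04 (95% interval -0.31 to 0.39). Srebf1, which encodes the factor that drives fatty acid synthesis genes, was 2665 ± 47.9 and 2740.1 ± 444 (SD, n = 4), a difference of 0.03 (95% interval -0.23 to 0.28).

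Fatty acid oxidation genes were lower in part. Of 31 tested genes of oxidation and the receptor PPARA, 12 were lower and 1 higher (background 13.3% and 12.8%), with a median of -0.18 that turned to 0.01 with the deposited scaling, where 8 were lower and 2 higher. Ppara itself was 1753, 1335, 2026 and 1488 in Pair control and 863, 943, 929.8 and 626 in EtOH IMC, with no overlap (log2 difference -0.97, SE 0.143, adjusted p = 0.000141). Cpt1a, which carries fatty acids into mitochondria, fell by 0.87 (log2, adjusted p = 7.91e-05). The gene that rose was Cyp4a14, a fatty acid hydroxylase, from 16506 ± 4796 to 32399 ± 14232 (SD, n = 4, log2 difference 0.94, adjusted p = 0.0287), and it did not pass without library 11 or 12 (adjusted p up to 0.0934). Of 78 tested nuclear genes of the mitochondrial respiratory chain, 27 were lower and none higher (background 13.3% and 12.8%), with a median of -0.20; with the deposited scaling 6 were lower and the median was -0.01, and without library 9, 13 or 14 the 27 calls became 16 or 17. Ndufs3 and Ndufb3, subunits of complex I, fell, with log2 differences of -0.45 (adjusted p = 0.000411) and -0.49 (adjusted p = 0.00104).

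Bile acid synthesis genes moved in both directions. Of 19 tested, 5 were lower and 4 higher (background 13.3% and 12.8%), and with the deposited scaling 3 were lower and 7 higher. Cyp8b1, which adds the 12-alpha hydroxyl that makes cholic acid, was 2011, 1589, 1677 and 2032 in Pair control and 385, 565, 631 and 144 in EtOH IMC, with no overlap (log2 difference -2.27, SE 0.350, adjusted p = 0.000211). With a single agent it was 2873 ± 444 in EtOH control and 2026 ± 718 in Pair IMC (SD, n = 4). Cyp7a1, the rate-limiting enzyme of the classic pathway, was 1655 ± 459.5 and 677 ± 387 (SD, n = 4, log2 difference -1.47, adjusted p = 0.03), with groups that overlapped and a call lost without library 13, 14, 15 or 16 (adjusted p up to 0.111). Of 13 tested transporters, 5 were higher, among them Abcc3 and Abcc4, and 2 lower (background 12.8% and 13.3%), against 7 and 1 with the deposited scaling. The bile salt export pump Abcb11 and the uptake carrier Slc10a1 did not pass, at 0.14 (95% interval -0.11 to 0.40) and -0.25 (95% interval -0.49 to -0.003, adjusted p = 0.127).

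Of 14 tested ethanol-metabolizing genes, 5 were lower and 1 higher (background 13.3% and 12.8%), against 4 lower and 3 higher with the deposited scaling. The gene that was higher was the retinal and acetaldehyde oxidizer Aldh1a1 (log2 difference 0.60, adjusted p = 0.0151). Cyp2e1 was 67821, 59920.0, 82108 and 65199.8 in Pair control and 20127, 47335, 24719 and 24857 in EtOH IMC, with library 11 the highest of the EtOH IMC livers and no overlap (log2 difference -1.30, SE 0.203, adjusted p = 0.000234). Aldh2 fell by 0.38 (log2, adjusted p = 0.0105), a call lost with the deposited scaling, and Adh1, the main alcohol dehydrogenase, was 21244 ± 2819 and 27900.1 ± 5234 (SD, n = 4, log2 difference 0.38, 95% interval 0.09 to 0.67, adjusted p = 0.0501). Adh1 passed with 10 of 22 alternatives. Among these were the deposited scaling, edgeR and DESeq2 on whole reads of all libraries, and the fits without library 9 or 16.

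Fmo5, a flavin monooxygenase, rose from 6793 ± 608 to 13692 ± 1025 (SD, n = 4, log2 difference 1.013, adjusted p = 6.46e-05). Of 18 tested genes of choline oxidation and the methionine cycle, 4 were lower and 2 higher (background 13.3% and 12.8%), but with the deposited scaling 1 was lower and 4 higher. Chdh, which oxidizes choline to betaine aldehyde, gave -0.10 (95% interval -0.31 to 0.12), Gnmt, which spends S-adenosylmethionine, 0.20 (95% interval -0.13 to 0.53), and Mat1a, which makes it, 0.22 (95% interval -0.09 to 0.53). Bhmt, which methylates homocysteine with betaine, was 32796, 38397, 29128 and 18852 in Pair control and 23889, 27752, 7252 and 8132 in EtOH IMC, with libraries 13 and 15 far below libraries 9 and 11, and did not pass (log2 difference -1.04, adjusted p = 0.058); it passed without library 9, 11 or 16.

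Many ribosome assembly factors were raised. Of 80 tested rRNA processing genes, 43 were higher and 3 lower (background 12.8% and 13.3%), with a median log2 difference of 0.33, and with the deposited scaling 61 and 1. In the other 8 livers 34 were lower in EtOH control than in Pair IMC and none higher. Rrp12, which helps export ribosomal subunits, was 32.1, 49.6, 74.6 and 57.7 in Pair control and 145, 122, 178 and 168 in EtOH IMC, with no overlap (log2 difference 1.55, adjusted p = 7.73e-05). Bysl, a factor of the small subunit, rose by 0.84 (log2, adjusted p = 0.0016). Npm1, nucleophosmin, was among the exceptions and fell by 0.41 (log2, adjusted p = 0.0106), a call lost with the deposited scaling. Of 80 tested ribosomal protein genes, 9 were higher and 2 lower (13.8% in all, background 26.2%), but with the deposited scaling 60 were higher and 1 lower. Those 11 calls became 33 without library 16, 20 without library 9, 6 without library 10 and 5 without library 15. Rplp0, a protein of the ribosomal stalk, rose by 0.55 (log2, adjusted p = 0.00169).

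Genes of the p53 response rose in part. Of 20 tested, 10 were higher and 2 lower (background 12.8% and 13.3%), with a median of 0.44. Cdkn1a, which encodes the cell cycle inhibitor p21, was 48.7, 104, 21.0 and 21.2 in Pair control and 634, 53.03, 294 and 387 in EtOH IMC. Library 11 lay within the range of Pair control and the other 3 EtOH IMC livers lay above it; the log2 difference was 2.65 (SE 0.719, adjusted p = 0.0119) and 3.38 without library 11. Eda2r, a receptor of the TNF family, rose by 2.04 (log2, adjusted p = 0.000687) without overlap. Mdm2, which degrades p53, rose from 377 ± 33.8 to 515 ± 37.9 (SD, n = 4, log2 difference 0.45, adjusted p = 0.00403).

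Of 27 tested genes of amino acid stress under the factor ATF4, 9 were higher and none lower (background 12.8% and 13.3%), with a median of 0.29; 13 were higher with the deposited scaling, and the count was 5 without library 10. Asns, asparagine synthetase, was 4.43, 9.72, 6.99 and 6.07 in Pair control and 29.9, 26.1, 19.8 and 30.1 in EtOH IMC, few reads but no overlap (log2 difference 1.84, SE 0.396, adjusted p = 0.00271). Mthfd2, a mitochondrial folate enzyme, rose by 1.39 (log2, adjusted p = 0.00463) and Nupr1, a stress-induced nuclear protein, by 0.94 (adjusted p = 0.0266), a call lost without library 10, 14 or 15. Trib3, a further target, gave -0.07 (95% interval -0.71 to 0.57). The word TGATGNAA, close to the composite site of ATF4 and C/EBP, was in 201 of 9485 promoter windows (2.12%) and in 8 of the 24 list members with a window (33.3%), of which 4 were among the 9 that passed. Asns and Nupr1 are shown because they passed and hold the word before the start (RefSeq, GRCm38.p6, chr6:7693210-7693459 and chr7:126625471-126625720, both minus strand, 250 bases, 5′ to 3′ on the strand of the gene, matches on either strand in capitals).
Asns: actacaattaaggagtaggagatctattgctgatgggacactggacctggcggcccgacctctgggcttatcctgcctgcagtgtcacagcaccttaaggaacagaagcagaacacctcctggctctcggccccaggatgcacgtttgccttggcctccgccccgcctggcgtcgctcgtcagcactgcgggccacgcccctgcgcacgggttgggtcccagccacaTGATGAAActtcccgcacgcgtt
Nupr1: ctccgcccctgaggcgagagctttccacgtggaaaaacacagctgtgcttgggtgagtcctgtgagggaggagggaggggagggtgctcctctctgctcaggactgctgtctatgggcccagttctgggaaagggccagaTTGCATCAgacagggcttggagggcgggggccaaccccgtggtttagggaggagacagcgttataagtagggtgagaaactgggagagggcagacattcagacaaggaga

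Tfrc, the transferrin receptor, was 547, 421, 343 and 675 in Pair control and 1599, 1041, 1498 and 915 in EtOH IMC, with no overlap (log2 difference 1.35, adjusted p = 0.000258), and Fth1, ferritin heavy chain, rose by 0.70 (log2, adjusted p = 0.000826). Hamp2, a gene of the hepcidin family, fell by 1.85 (log2, adjusted p = 0.00132), while Hamp, which encodes hepcidin, gave -0.05 with a wide 95% interval of -1.03 to 0.93. Nr1d1, the clock repressor REV-ERB alpha, fell by 1.18 (log2, adjusted p = 0.00187). Dbp, a clock output factor, was 98.5, 350.0, 988 and 669.6 in Pair control and 20.5, 128, 136 and 66.7 in EtOH IMC and did not pass (log2 difference -2.46, adjusted p = 0.0555); it passed without library 10. Of 20 tested clock genes 5 were lower and none higher, 25% against a background of 26.2% in either direction, and with the deposited scaling 3 were lower and 1 higher; the count was 3 without library 9, 14 or 16 and 8 without library 10. The labels give no hour of tissue collection.

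Of 18 tested sinusoidal endothelial markers, 6 were higher and none lower (background 12.8% and 13.3%), and 12 did not pass. Their median was 0.29, and 15 were higher with the deposited scaling. Their summed level overlapped between the groups, at 6922 to 8161 in Pair control and 7316 to 10100 in EtOH IMC. Wnt2, a ligand that endothelial cells of the central vein send to hepatocytes, was 28.8, 43.7, 26.8 and 58.7 in Pair control and 81.2, 93.4, 79.1 and 100.5 in EtOH IMC (log2 difference 1.21, adjusted p = 0.00077), and Bmp2, which endothelium sends to hepatocytes to induce hepcidin, rose by 0.70 (log2, adjusted p = 0.00262). Stab2, a scavenger receptor that defines these cells, gave -0.11 (95% interval -0.45 to 0.23). The bile duct keratin Krt19 varied widely, 169, 277, 133 and 40.5 in Pair control and 41.9, 130.5, 15.8 and 85.5 in EtOH IMC, and did not pass (adjusted p = 0.285). The 3 tested red cell genes were lower (background 13.3%), among them the adult beta globin Hbb-bs (log2 difference -1.86, adjusted p = 0.0124). Summed levels of 8 such genes were 184 to 311 in Pair control and 50.4 to 135 in EtOH IMC. The part of blood in the other differences was not tested. Of 15 pancreatic markers 9 were at 0 in all 8 livers, as were 4 of 11 intestinal markers.

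Some genes differed between EtOH control and Pair IMC while EtOH IMC and Pair control overlapped. Fgf21, a fasting and stress hormone of the liver, was 78.6, 24.3, 37.3 and 34.4 in Pair control and 24.8, 54.7, 86.1 and 35.7 in EtOH IMC, against 15.2 ± 9.97 in EtOH control and 159.8 ± 75.2 in Pair IMC (SD, n = 4). The log2 difference was 0.19 between EtOH IMC and Pair control (95% interval -0.78 to 1.15, which leaves room for a change of about 2-fold upwards) and -3.36 in the other 8 livers (adjusted p = 7.30e-05). Hamp was 8588 ± 3917 in Pair control, 7755 ± 3255 in EtOH IMC, 1532 ± 871 in EtOH control and 4460.0 ± 2201 in Pair IMC (SD, n = 4), with -1.57 (adjusted p = 0.0168) in the other 8 livers. For Cyp3a11, Cyp2b9, Fasn and Srebf1 the intervals given above lay inside a 1.5-fold change either way.

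**Figure D5:**
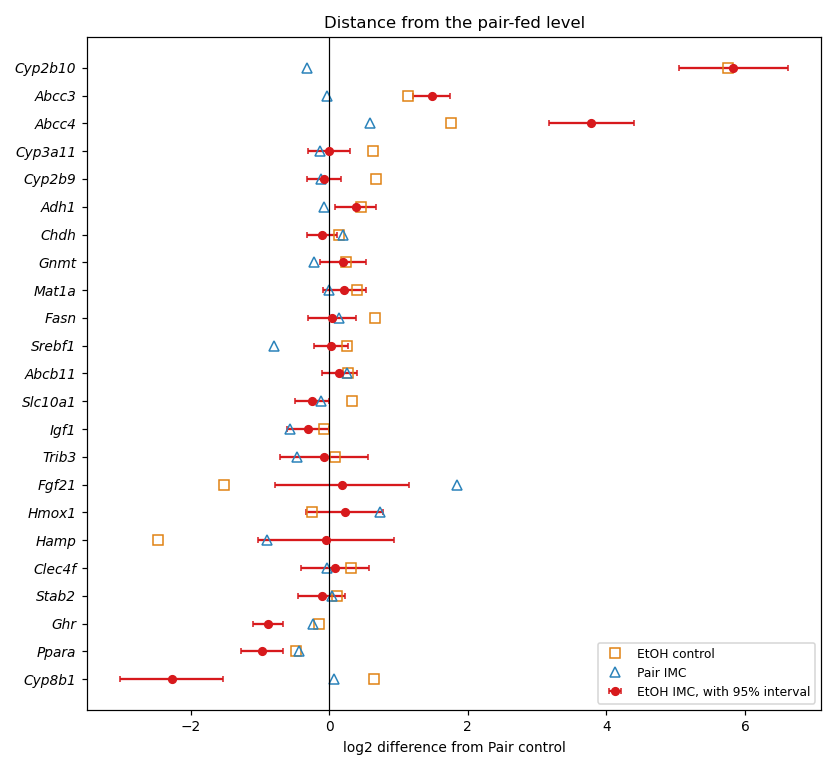
Red points give the log2 difference of EtOH IMC from Pair control with its 95% interval for 23 genes, beside the differences of EtOH control (squares) and Pair IMC (triangles) from the same Pair control livers. Cyp2b10, Abcc3 and Abcc4 lie to the right of 0 and Ghr, Ppara and Cyp8b1 to the left, while the intervals of Cyp3a11, Fasn, Srebf1, Fgf21 and Hamp include 0.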

How the data were processed

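Liver RNA of 16 mice was sequenced on 16 libraries, 4 for each group, made with a directional kit. Per the study's methods and the submitters' processing notes, the authors trimmed reads (Trim Galore), checked them (FastQC), aligned them to mm10 (STAR) and normalized gene counts in edgeR; the counting tool was not given in the sources used here. The signal values the authors deposited are read counts per gene over a scaling factor of each library, and 100% of values in each library came out as whole reads within 0.01 of a read (edgeR on these reads passed 3198 genes). The factors appeared to be set within each diet, which was inferred from the values. All 16 libraries were therefore rescaled here by a median ratio over 13121 genes, with divisors of 1.073 to 1.079 in ethanol-fed and 0.940 to 0.945 in pair-fed livers. The table has 27212 rows for 24082 Ensembl IDs; the first row of an ID was kept.

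Genes that reached 10 in 4 or more of the 8 libraries were tested with limma 3.58.1 in R 4.3.3 (one mean for each group over all 16 libraries, mean-variance trend, two-sided) on log2(value + 1), with Benjamini-Hochberg adjustment over 12148 genes at a threshold of 0.05. On simulated data with 200 genes changed by 1.5 (log2), 190 were recovered with 15 false calls. The genes that passed in the data had a median absolute log2 difference of 0.538, and recovery of changes smaller than 1.5 was not simulated. Alternatives were other scalings, pseudocounts and filters, each library left out, the count models of edgeR 4.0.16 and of DESeq2 1.42.0 applied to whole reads, and both of these without library 15, the latter chosen after seeing the data. Reads on genes ranged from 9632659 to 12601199 over the 8 libraries, and intervals cover the spread between livers. Gene positions are from GENCODE vM21 (12143 of 12148 IDs matched).

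The groups, gene lists and motifs were chosen with earlier results of these data known. Named genes are key genes of each list, the 12 largest rises and falls, the 3 largest differences of each list, and the genes with the smallest p-values. The rises and falls were taken from genes that passed without overlap and reached a minimum mean in the higher group. The 3 of each list were taken from members that passed and reached a lower minimum mean. For genes named by such a rule, passing or lack of overlap follows from the choice and is no added support. Ugdh, Hmgcs1, Nupr1, Cyp2b13, Cyp2a4, Nudt7, Scd2 and Aldh1a1 were named after their values were seen. Some key genes of the lists are not reported here.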

Additional observations from a re-analysis of the deposited data

Results flagged for a closer look

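Within each group of 4 livers, the highest or lowest liver was set against the rest for the named genes, and a liver is listed where its gap to the nearest other liver exceeded the 95% critical value of Dixon's test. Chance flags about 1 in 20 groups, and 17 of 274 groups were listed here (6.2%), counted over genes that are not independent. EtOH IMC library 11 was listed for 5 genes. It was the highest of its group for Nsdhl (746, others 301 to 357), Sult3a1 (250.001, others 9.89 to 46.0), Sult2a8 (615, others 65.3 to 69.3) and Ces3a (1333, others 177 to 324). It was the lowest for Cd163 (258, others 476 to 479.6). EtOH IMC library 9 was the highest for Mvd (157, others 118 to 119.7). That library was the lowest for Trib3 (82.9, others 147 to 158). EtOH IMC library 13 was the highest for Gclc (10176, others 6168 to 6619). 

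Among the pair-fed controls, library 12 was the highest for the acute phase and stress transcripts Saa1 (6851, others 242 to 594), Saa2 (5623, others 112 to 241), Lcn2 (1548, others 93.3 to 145) and Hmox1 (279, others 184 to 199). Library 10 was the lowest for Hamp (2757, others 9942 to 11122) and Tsku (151, others 370.2 to 396). Library 16 was the lowest for Aldh2 (18111, others 22878 to 23671) and Ass1 (25534, others 39219 to 42023). Library 14 was the highest for Nqo1 (159, others 134 to 137). Of these genes, the falls of Sult2a8, Sult3a1, Ces3a, Saa1, Saa2, Mvd, Nsdhl and Aldh2 passed in limma with every library left out in turn. So did the rises of Nqo1, Gclc and Tsku. The part of each liver in the whole comparison was not tested beyond leaving it out.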

How the results depend on the processing

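The number of genes that passed between EtOH IMC and Pair control was 3177 and ranged from 2320 to 4646 over the alternatives, and from 2510 to 3175 with each library left out. It was 2320 when the fit held the 8 libraries alone, 3198 with edgeR (TMM), and 2603 with edgeR and 2825 with DESeq2 when library 15 was left out. The deposited scaling moved the split from 1560 higher and 1617 lower to 3831 and 815. For EtOH control against Pair IMC the count was 3619, from 3427 to 4246 over the alternatives that kept all libraries and all tested genes, and from 2824 to 3634 with each library left out; upper quartile scaling split it into 2087 higher and 1484 lower.

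Of 137 named genes, 107 passed, 93 of them in every alternative that gave a value. Lost calls numbered 14, and 13 genes that did not pass did so in some alternative. No call reversed. DESeq2 gave no adjusted p for Sult2a8, Saa1 and Saa2. The cause of each lost call was not tested. No paired analysis was possible because the compared groups share no replicate number in the labels. With 4 livers a group the median standard error of a log2 difference was 0.136, which limits small differences.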

Other observations

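Hepatocyte zonation genes did not move as blocks. Of 22 tested genes of pericentral hepatocytes, 8 were lower and 5 higher in EtOH IMC than in Pair control, and of 23 periportal genes 4 were lower and 6 higher (background 13.3% and 12.8% for each list here). With the deposited scaling 6 pericentral genes were lower and 8 higher, and 3 periportal genes were lower and 12 higher. Among the pericentral genes, Glul, glutamine synthetase, was 13996 ± 302 in Pair control and 10800.1 ± 768 in EtOH IMC (SD, n = 4, log2 difference -0.38, adjusted p = 0.0065, a call lost with the deposited scaling), and Oat, which degrades ornithine, fell by 0.92 (log2, adjusted p = 0.00948). Cyp2f2, the P450 of periportal hepatocytes, fell by 0.60 (log2, adjusted p = 0.00187). Serpina12, which encodes the secreted protein vaspin, fell from 88.5 ± 80.0 to 16.2 ± 5.42 (SD, n = 4, log2 difference -2.05, adjusted p = 0.00317). Sdsl, a serine dehydratase relative, and Gldc, of the glycine cleavage system, rose, with log2 differences of 1.012 (adjusted p = 0.000719) and 0.86 (adjusted p = 0.000162). Of 24 tested genes of the urea cycle and amino acid breakdown, 4 were higher and 5 lower, against 9 and 3 with the deposited scaling, and Cps1, the entry enzyme of the cycle, was 70896, 68107, 65142 and 46406 in Pair control and 69465, 56746, 65762 and 56458 in EtOH IMC (log2 difference 0.00096, 95% interval -0.36 to 0.36). Of 18 tested genes of glucose production and glycogen, 2 were higher and 1 lower, against 5 and 1 with the deposited scaling; Pck1, the key enzyme of gluconeogenesis, gave 0.58 (adjusted p = 0.0805) and passed without library 12 or 15.

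Of 21 tested apolipoprotein and lipoprotein assembly genes, 4 were lower and 1 higher, 23.8% against a background of 26.2%, and with the deposited scaling 2 were lower and 4 higher. Pltp, which transfers phospholipids between lipoproteins, was 205, 332, 333 and 498 in Pair control and 94.9, 104, 96.9 and 126 in EtOH IMC, with no overlap (log2 difference -1.63, adjusted p = 7.71e-05). Lipc, hepatic lipase, fell by 0.59 (log2, adjusted p = 0.00376), and Apob gave 0.25 (95% interval -0.09 to 0.60). Of 16 tested lipid droplet genes, 3 were higher and 3 lower (background 12.8% and 13.3%), against 4 and 1 with the deposited scaling. Hsd17b13, a lipid droplet enzyme of hepatocytes, rose by 0.77 (log2, adjusted p = 4.79e-05), Abhd5, the coactivator of triglyceride lipase, rose by 0.60 (log2, adjusted p = 0.000108), and Plin2, the main coat protein of hepatic droplets, gave -0.48 (adjusted p = 0.0593) and passed without library 15 or 16.

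Of 38 tested proteasome subunits, 9 were higher and 3 lower, against 22 and 1 with the deposited scaling. The background for each list in this paragraph is 12.8% higher and 13.3% lower. Psmb8, a subunit of the immunoproteasome that interferon induces, fell by 0.55 (log2, adjusted p = 0.00406), and Psmd13, of the regulatory particle, rose by 0.44 (log2, adjusted p = 0.000451). Of 22 tested endoplasmic reticulum chaperone genes, 1 was lower and none higher, against none and 7 with the deposited scaling, and Hspa5 gave 0.32 (95% interval -0.06 to 0.70). Of 19 tested cell cycle genes, 2 were lower and 1 higher, against 1 and 4 with the deposited scaling; Mki67, the proliferation marker, was 55.4, 39.9, 29.1 and 88.0 in Pair control and 23.9, 22.7, 21.8 and 15.97 in EtOH IMC (adjusted p = 0.163). Of 8 tested targets of the aryl hydrocarbon receptor, 2 were higher, Cyp1a2 and Nqo1, and 1 was lower, against 4 and 1 with the deposited scaling. Of 25 tested stellate cell and matrix genes, 2 were higher and 2 lower, among them Ecm1, an extracellular matrix protein, which fell by 1.05 (log2, adjusted p = 0.000116); the deposited scaling gave 4 and 2. The summed level of 26 such genes was 24680 to 26750 in EtOH IMC and 27870 to 34420 in Pair control, without overlap. A sum weighs the most abundant genes most, and the median log2 difference of the 25 tested genes was -0.0023. Of 6 tested monocyte and neutrophil markers 1 was higher and 1 lower. Of 14 tested bile duct markers 1 was lower, with a list median of -0.57, and the summed level of 16 such markers was 962 to 1227 in EtOH IMC and 1303 to 2051 in Pair control, also without overlap. The part of these cells in the other differences was not tested. In each of the pancreas, intestine and adipocyte lists 3 markers could be tested and 1 was lower.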
